A study of Mus musculus with 13 samples.

Results

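Transcripts of 9 genes that build and break down glycogen were followed in RNA sequencing libraries of mouse skeletal muscle. They are Gyg, Gys1, Gbe1, Pygm, Phka1, Phkb, Phkg1, Ppp1r3a and Ppp1r3c, taken by symbol from the 49315 Ensembl identifiers of the deposited count table, and all 9 were among the 16496 genes left after a filter on low counts. The 13 libraries came from mice with a miR-181a2b2 flox/flox genotype (flox, titled WT) or from systemic miR-181a2b2 knockouts (KO), fed chow or a diet named only HFSC. There were 3 chow flox (replicates 2 to 4), 3 chow KO (replicates 1 to 3), 4 HFSC flox (replicates 1 to 4) and 3 HFSC KO (replicates 2 to 4) libraries. The controls are thus flox mice, and no group without the floxed allele was included. The labels name hindlimb ischemia as part of the study but give no limb, time, age or sex for a sample, and their extraction text speaks of white adipose tissue where the source is skeletal muscle. Nothing states that replicates were separate animals, so p-values measure only the spread between these libraries, which may be technical.

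Glycogen is the glucose store of muscle fibres. Glycogenin (Gyg) starts each particle by adding glucose to itself, glycogen synthase (Gys1) lengthens the chains, and the branching enzyme (Gbe1) adds branch points. Glycogen phosphorylase of muscle (Pygm) releases glucose 1-phosphate. It is switched on by phosphorylase kinase, whose muscle form holds a regulatory alpha subunit (Phka1), a regulatory beta subunit (Phkb), a catalytic gamma subunit (Phkg1) and calmodulin as the calcium sensor. Protein phosphatase 1 acts the other way, and is brought to glycogen by targeting subunits such as Ppp1r3a, the large striated muscle form, and Ppp1r3c, also called PTG.

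Libraries held 20830943 to 45710227 counts each, and the members had between 1062 (Gbe1) and 276309 (Pygm) counts in a library. Levels are CPM, counts scaled to a common library size, after adjusting library sizes by the trimmed mean of M values (TMM). The source label was checked on markers: 11 fast fibre genes summed to 79425 to 194175 CPM and 6 adipocyte genes to 205 to 743 CPM. Hepatocyte markers summed to at most 0.236 CPM. The targeted hairpins cannot check the genotype labels, since Mir181a-2 had 0 to 2 reads and Mir181b-2 none in any library of this poly(A) selected RNA. The library called chow flox replicate 3 stood apart, with the lowest fast fibre sum and the highest sum of 9 fibroblast and matrix genes (6810.0 CPM), and it was the lowest of all 13 libraries for 7 of the 9 members. Chow flox replicate 4 differed from the others of its group in the opposite way, with 175644 CPM of fast fibre genes and 1322 CPM of matrix genes. It lay within the range of chow KO for 5 members, above it for 3 and below it for 1 (Gyg), while chow flox replicates 2 and 3 lay below that range for all 9.

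Compared per kilobase of annotated exon, Pygm was far above the other members, with 1992 ± 544 CPM per kb (SD over the 13 libraries). Ppp1r3c followed at 203 ± 106, then Gyg at 133 ± 46.4, Phka1 at 131 ± 47.6, Gys1 at 92.8 ± 14.1, Phkg1 at 72.6 ± 10.98, Phkb at 67.4 ± 20.3, Ppp1r3a at 60.4 ± 19.5 and Gbe1 at 13.8 ± 3.39 CPM per kb. Pygm lay above Ppp1r3c, Gys1 above Phkg1 and Ppp1r3a above Gbe1 in all 13 libraries. Gyg exceeded Phka1 in only 8 of 13 libraries and Phkg1 exceeded Phkb in 7 of 13, so these neighbours did not differ beyond their spread. The forms best known from other tissues were scarce. Pygb, the brain phosphorylase, had 2.37 ± 0.586 CPM per kb and Pygl, the liver phosphorylase, 0.534 ± 0.282, and Pygm was at least 314 times Pygb and 851 times Pygl in every library. Phka2 and Phkg2, the liver alpha and gamma subunits, reached 2.09 ± 0.330 and 1.51 ± 0.181 CPM per kb. Gys2, the liver synthase, had 0 to 11 reads in a library and did not pass the filter on low counts. A library with no read is limited to 3 counts, 0.0656 to 0.144 CPM, and such limits cover counting error only. Among the other targeting subunits of protein phosphatase 1, Ppp1r3d had the most, at 1.54 ± 0.315 CPM per kb, and Ppp1r3g had 0 to 3 reads. These lengths are merged exons of GENCODE M21, so a gene with long rarely used exons reads low.

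**Figure D1:**
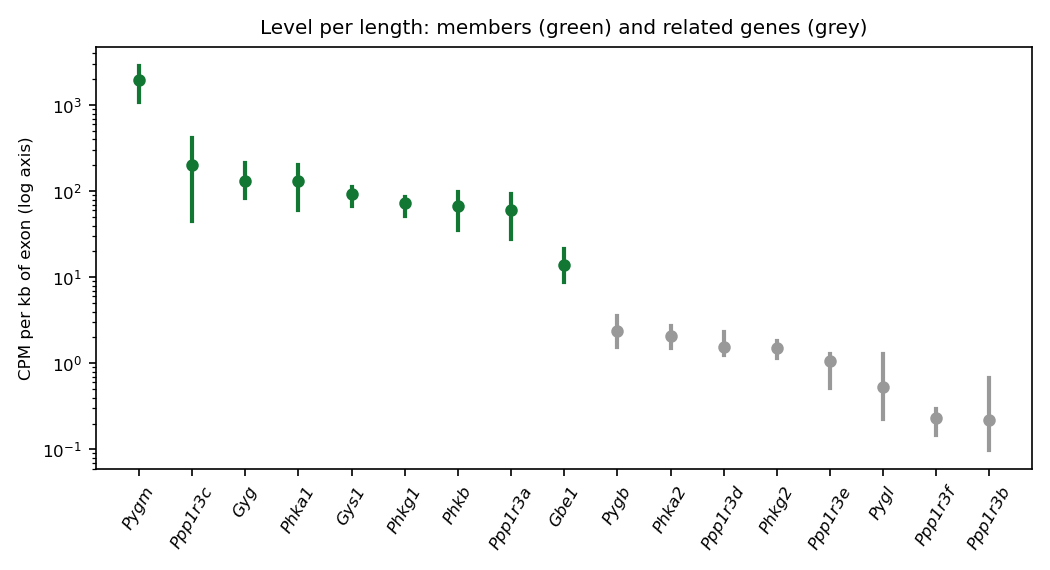
Level per kilobase of exon (CPM per kb, log axis) of the 9 members (green) and of 8 related genes (grey). Points are means and bars run from the lowest to the highest of the 13 libraries. All 9 members lie above the related genes, and Pygm is the highest at 1992 CPM per kb.

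Gyg (ENSMUSG00000019528, chromosome 3, 20122084 to 20155317, minus strand, GRCm38) gave the clearest group pattern. Chow flox replicates 2, 3 and 4 had 237, 198 and 402 CPM, and chow KO replicates 1, 2 and 3 had 482, 471 and 501 CPM. HFSC flox replicates 1 to 4 had 272, 274, 250.2 and 239 CPM, and HFSC KO replicates 2, 3 and 4 had 258, 226 and 258 CPM. All chow KO libraries were thus above all other libraries, and the HFSC libraries of both genotypes overlapped. In chow KO the mean was 485 ± 14.9 CPM (SD, n = 3), against 279 ± 108 in chow flox (n = 3), 259 ± 17.2 in HFSC flox (n = 4) and 247 ± 18.6 in HFSC KO (n = 3).

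Loss of the locus was first examined in mice on chow. In KO against flox Gyg rose by 0.80 ± 0.21 on the log2 scale (SE), or 1.74-fold (edgeR quasi-likelihood test with Benjamini-Hochberg adjustment, adjusted p = 0.031), and was the only member that passed the threshold of 0.05. Of the 9 members 1 was called, where 11.5% of all 16496 genes were called in either direction and 1.38% as higher. Groups did not overlap for 1 of the 9, Gyg, against 24.8% of all genes. The fold changes of the 9 ran from 0.01 (Gbe1) to 0.80 with a median of 0.61, beside a median of -0.01 over all genes tested. The call for Gyg was lost without chow flox replicate 2 (log2 fold change 0.68, adjusted p = 0.111), chow flox replicate 3 (0.59, adjusted p = 0.121) or chow KO replicate 1 (0.80, adjusted p = 0.063), 2 (0.82, adjusted p = 0.093) or 3 (0.78, adjusted p = 0.122). Without chow flox replicate 4 it was 1.16 (adjusted p = 4e-05), and 7 members were then called, all higher in KO, in a fit that called 7261 genes in all where edgeR on all libraries called 1898. Limma voom called 8 members, all higher in KO, and 9899 genes in all. With only these groups in the fit Gyg had 0.78 (adjusted p = 0.192), and 2 genes in all were called.

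Gys1 varied least of the synthesis enzymes, with its highest library 1.67 times its lowest, against 2.53 times for Gyg and 2.43 times for Gbe1. Gys1 (chromosome 7, 45434844 to 45456619, plus strand) had 409, 321 and 534 CPM in chow flox, 460.2, 532 and 499 in chow KO, 403, 447, 394 and 439.7 in HFSC flox, and 442, 535 and 361 in HFSC KO. The groups overlapped throughout, and the 4 group means lay between 421 and 497 CPM. Its genotype difference was 0.24 ± 0.19 on chow (95% interval -0.16 to 0.64, adjusted p = 0.37) and 0.08 ± 0.17 on HFSC (-0.29 to 0.46, adjusted p = 0.92). Exons of Gys1 overlap those of the opposite-strand gene Ruvbl2 by 310 of 4789 bases, and with the strand setting unknown reads there may belong to either gene. Gbe1 (chromosome 16, 70313949 to 70569716, plus strand) had 65.5, 75.1 and 115 CPM in chow flox and 80.3, 91.1 and 85.7 in chow KO. On HFSC it had 78.7, 53.8, 47.4 and 81.3 CPM in flox and 55.5, 61.5 and 70.4 in KO. All 3 HFSC KO libraries were below all 3 chow KO libraries, a difference of -0.46 ± 0.23 on the log2 scale that did not pass (adjusted p = 0.15).

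Pygm (ENSMUSG00000032648, chromosome 19, 6384399 to 6398459, plus strand) had 4973, 3542 and 7990.0 CPM in chow flox and 7271, 9033 and 9152 CPM in chow KO. HFSC flox libraries had 5571, 7699, 6037 and 5834 CPM and HFSC KO libraries 6512, 5598 and 4103 CPM. Chow flox replicate 4 lay inside the chow KO range, and replicates 2 and 3 below it. The chow means were 5502 ± 2271 CPM in flox and 8485 ± 1054 in KO (SD, n = 3 each), and the difference of 0.63 ± 0.28 on the log2 scale did not pass (edgeR, adjusted p = 0.13). On HFSC it was -0.22 ± 0.26 (95% interval -0.78 to 0.34, adjusted p = 0.83).

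The regulatory subunits of phosphorylase kinase followed a like order of libraries. Phka1 (chromosome X, 102513975 to 102644246, minus strand) had 564, 383 and 1257 CPM in chow flox, 957, 1199 and 1248 in chow KO, 821, 1050.3, 599 and 731 in HFSC flox, and 762, 528 and 549 in HFSC KO. Phkb (chromosome 8, 85840959 to 86061376, plus strand) had 402, 262 and 664 CPM in chow flox, 641, 668 and 719 in chow KO, 538, 603, 377 and 414 in HFSC flox, and 508, 303 and 403 in HFSC KO. For both regulatory subunits chow flox replicate 4 reached the chow KO libraries while replicates 2 and 3 did not, and no HFSC KO library reached chow KO. Phkg1 (chromosome 5, 129863421 to 129898549, minus strand), the catalytic subunit, was flatter, with 480.3, 333 and 536 CPM in chow flox, 524, 532 and 550.3 in chow KO, 407, 492, 505 and 402 in HFSC flox, and 553, 387 and 443 in HFSC KO. The highest library of Phkg1, HFSC KO replicate 2, lay above all chow KO libraries. That library was 1.66 times its lowest, against 3.29 times for Phka1 and 2.75 times for Phkb. On chow the genotype differences were 0.63 ± 0.35 (Phka1, adjusted p = 0.22), 0.61 ± 0.30 (Phkb, adjusted p = 0.17) and 0.25 ± 0.19 (Phkg1, adjusted p = 0.35), none of them called in edgeR on all libraries. Limma voom called Phka1 (1.05) and Phkb (0.78) higher in KO, and not Phkg1 (0.19, adjusted p = 0.16). Exons of Phkg1 overlap the opposite-strand gene Sumf2 by 630 of 6509 bases, so part of its reads is uncertain.

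**Figure D2:**
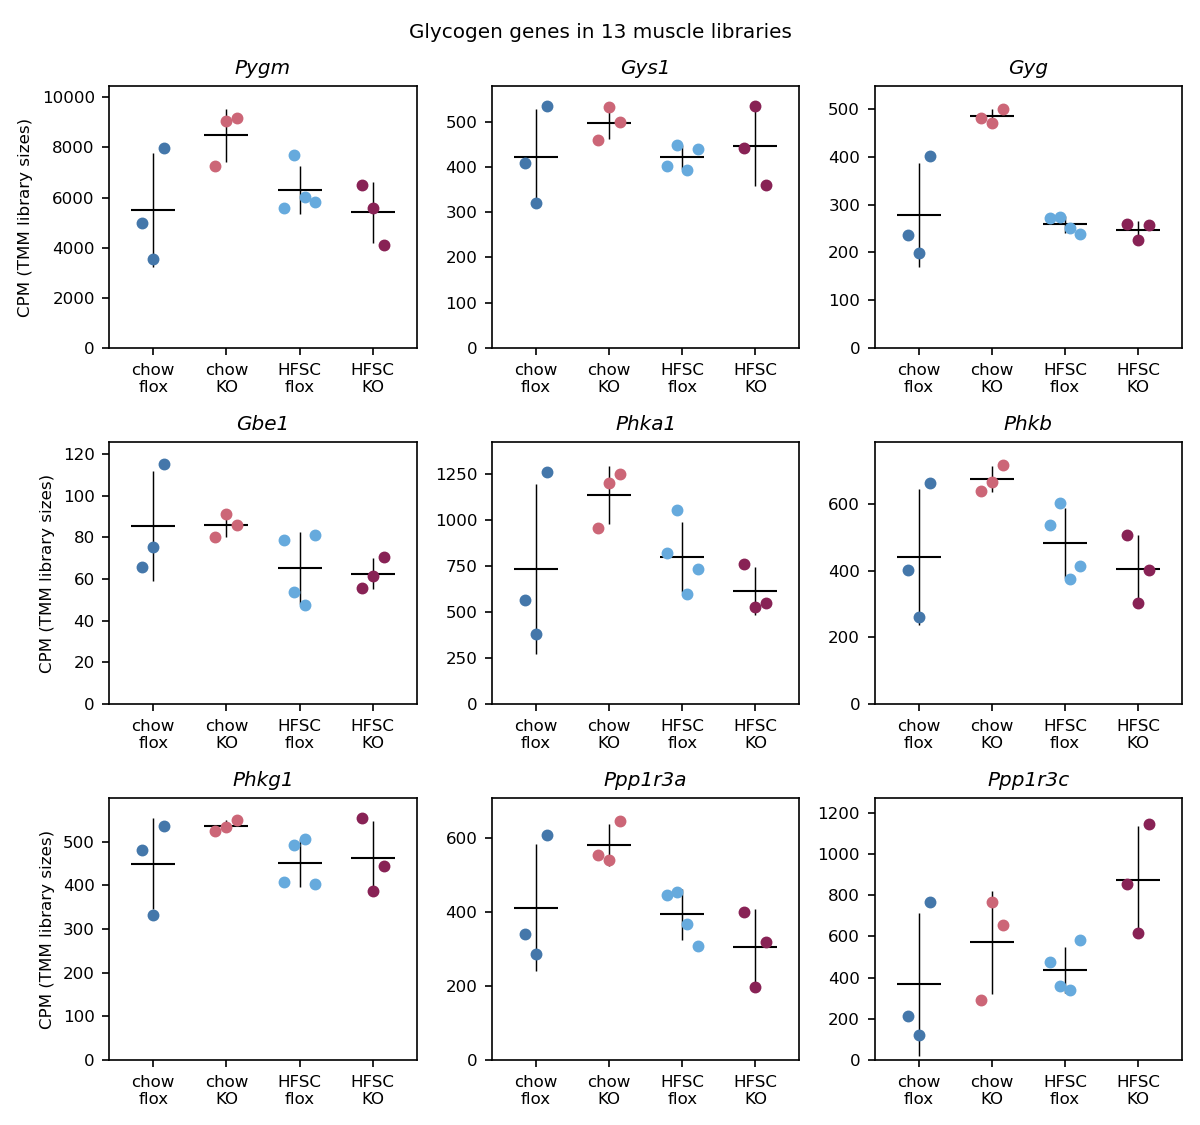
CPM of each member (y axes from 0) in the 13 libraries by group. Points are libraries in order of replicate number, horizontal lines are group means and vertical lines 1 SD. Chow KO libraries stand above all others for Gyg (471 to 501 CPM), and chow flox libraries are spread widely for most members.

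The targeting subunits of protein phosphatase 1 were ordered differently across the libraries. Ppp1r3a (ENSMUSG00000042717, chromosome 6, 14713977 to 14755274, minus strand) had 341, 287 and 609 CPM in chow flox, 555, 541 and 646 in chow KO, 447, 454, 367 and 309 in HFSC flox, and 401, 197 and 318 in HFSC KO. All HFSC KO libraries (305 ± 103 CPM, SD, n = 3) were below all chow KO libraries (581 ± 56.8, n = 3), and overlapped the HFSC flox libraries. Ppp1r3c (ENSMUSG00000067279, chromosome 19, 36731731 to 36736653, minus strand) had 212, 122 and 765 CPM in chow flox, 292, 768 and 654 in chow KO, 475, 358, 341 and 579.7 in HFSC flox, and 853, 616 and 1143 in HFSC KO. It was the most variable member, with its highest library 9.34 times its lowest. All 3 HFSC KO libraries (871 ± 264 CPM, SD) were above all 4 HFSC flox libraries (438 ± 112 CPM).

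The same genotype contrast was then made on HFSC. No member passed in edgeR, in DESeq2 or in limma voom. At an unadjusted p under 0.05 in edgeR there were 0 of the 9, a share that was not counted over all genes. Of all genes tested 0.0182% were called. The largest difference was that of Ppp1r3c, 0.99 ± 0.51 on the log2 scale (95% interval -0.11 to 2.09, edgeR adjusted p = 0.54). It was the 1 member of 9 whose groups did not overlap, against 12.7% of all genes. Gyg differed by -0.06 ± 0.19 (95% interval -0.48 to 0.35, adjusted p = 0.95) and Ppp1r3a by -0.37 ± 0.27 (-0.96 to 0.23, adjusted p = 0.69).

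HFSC flox was next compared with chow flox. Since the labels give no limb or time, diet cannot be told apart from a difference in sampling between the diet groups, in either genotype. Again 0 of 9 members passed in edgeR and in DESeq2, and 1 passed in limma voom, Ppp1r3c (1.06, adjusted p = 0.017), a fit that called 4176 genes in all. At an unadjusted p under 0.05 in edgeR there were 0 members, again with no count over all genes. Over all genes 0.418% were called, and no member had groups that did not overlap, against 9.86% of all genes. The largest edgeR difference was that of Gbe1 (-0.38 ± 0.21, adjusted p = 0.49). Gyg differed by -0.11 ± 0.19 (95% interval -0.52 to 0.31, adjusted p = 0.87). In these same libraries 8 of 10 slow fibre genes fell, with a median of -2.60 on the log2 scale, and the summed slow fibre level was 7004 to 8984 CPM in chow flox and 890 to 2157 CPM in HFSC flox.

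In KO mice the diet contrast was larger. HFSC KO was lower than chow KO in Gyg by 0.97 ± 0.21 on the log2 scale, a 1.96-fold fall (log2 fold change -0.97, edgeR adjusted p = 0.0084), and in Ppp1r3a by 1.90-fold (-0.93 ± 0.29, adjusted p = 0.037). These 2 of 9 members fell and none rose, where 25.5% of all genes were called and 10.6% were called lower. Pygm (-0.65 ± 0.28, adjusted p = 0.097), Phka1 (-0.89 ± 0.36, adjusted p = 0.081) and Phkb (-0.74 ± 0.30, adjusted p = 0.082) did not pass, and neither did Gys1 (-0.16 ± 0.19), Phkg1 (-0.22 ± 0.19) or Ppp1r3c (0.61 ± 0.55). Groups did not overlap for 6 of 9 members, against 50.6% of all genes, a share near that background. The median over the 9 was -0.65, beside 0.02 over all genes. DESeq2 called 5 members and limma voom 6, all lower, and 6 were called with only these groups in the fit. Over all genes these fits called 5273, 7160 and 5651, where edgeR on all libraries called 4201. Both diet contrasts and both genotype contrasts use the same groups of libraries, so the rise of Gyg in chow KO and its fall in HFSC KO rest on the same 3 chow KO libraries.

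The fall of Gyg in KO was called in every fit that left out 1 library, with log2 fold changes from -1.03 to -0.91. That of Ppp1r3a was lost without chow KO replicate 1 (-0.96, adjusted p = 0.066), 2 (-0.98, adjusted p = 0.072) or 3 (-0.85, adjusted p = 0.114), and without HFSC KO replicate 3 (-0.69, adjusted p = 0.116) or 4 (-0.98, adjusted p = 0.081).

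**Figure D3:**
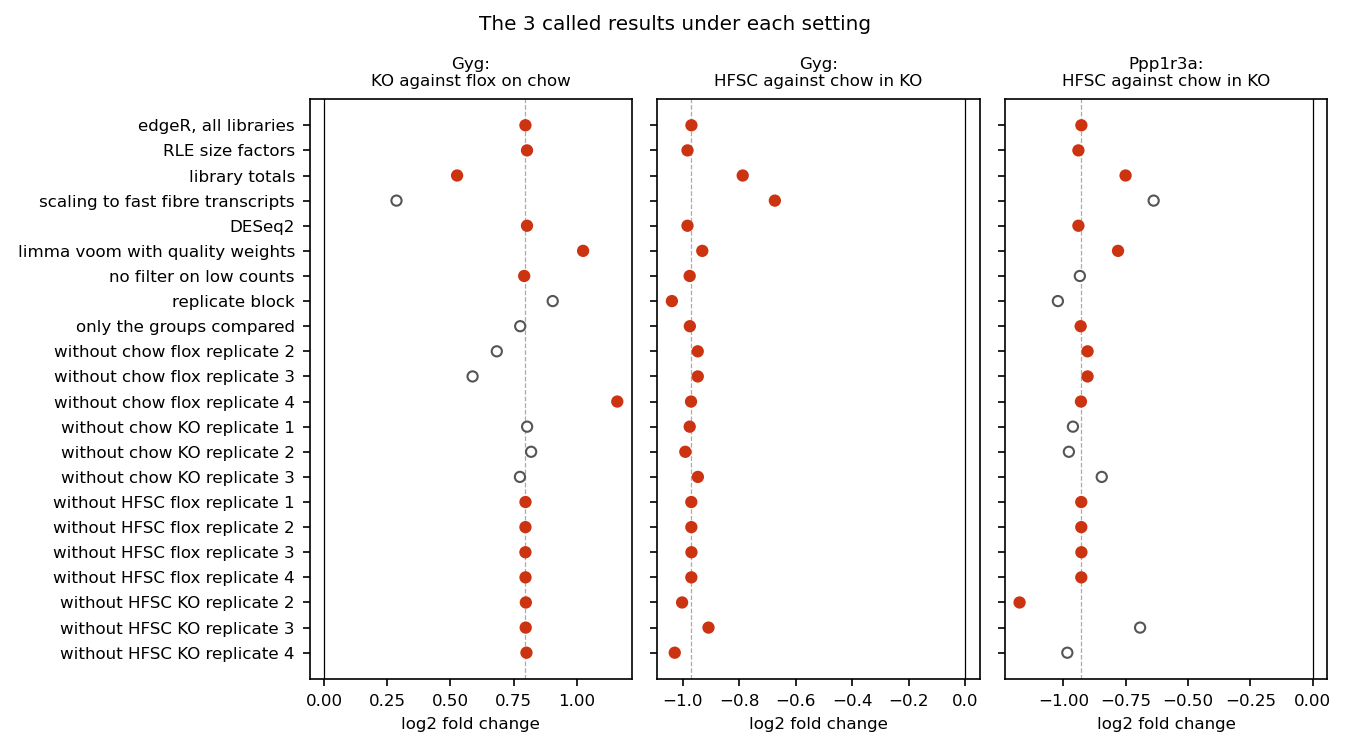
Log2 fold change (x axes) of the 3 called results under each setting (y axis). Filled red points have an adjusted p under 0.05 and the dashed line marks the value from edgeR on all libraries. The fall of Gyg in KO on HFSC is filled under every setting shown, while the rise of Gyg on chow and the fall of Ppp1r3a lose their call under several.

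**Figure D4:**
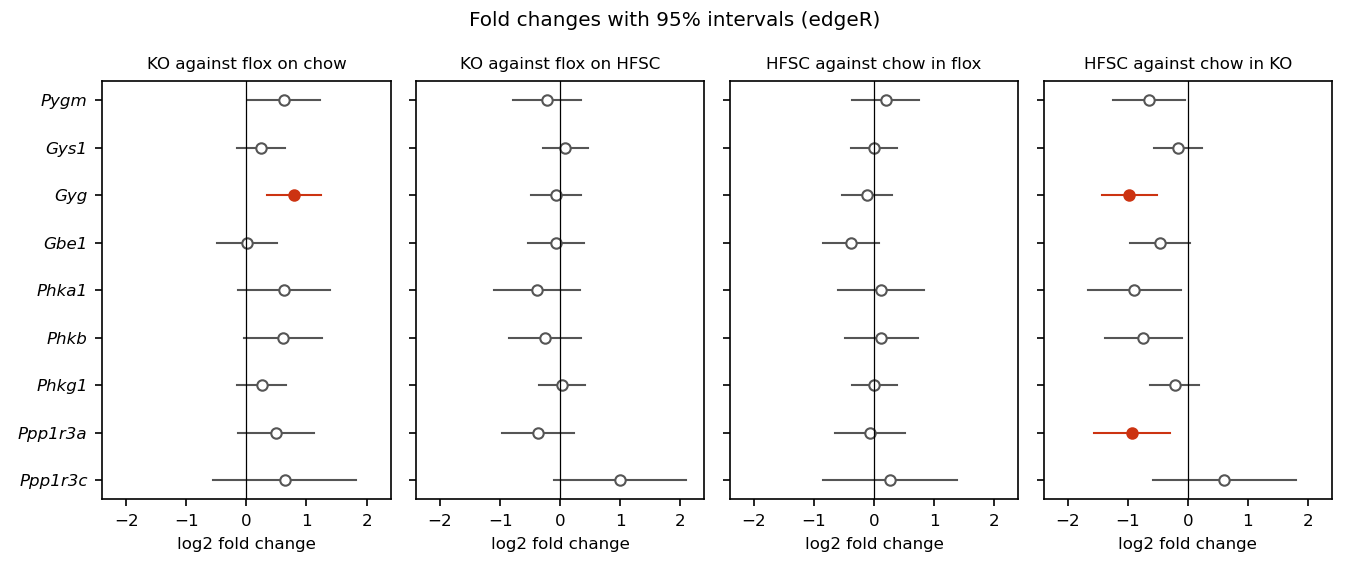
Log2 fold changes (x axes) of the 9 members in the 4 contrasts, with 95% intervals from edgeR. Filled red points passed the adjusted threshold of 0.05. These are Gyg in KO against flox on chow (0.80), and Gyg (-0.97) and Ppp1r3a (-0.93) in HFSC against chow in KO.

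The interaction of genotype and diet was not called for any member in edgeR, and of all genes 0% passed. At an unadjusted p under 0.05 there were 2 members, Gyg (-0.86 ± 0.28, adjusted p = 0.095) and Pygm (-0.84 ± 0.38, adjusted p = 0.16). The share of all genes under that unadjusted threshold was not counted, so an excess among the members cannot be read from it. DESeq2 called 1 member, Gyg (-0.88, adjusted p = 0.030), and limma voom 5, namely Pygm, Gyg, Phka1, Phkb and Ppp1r3a. Without chow flox replicate 4 the same 5 were called in edgeR, with Gyg at -1.22 (adjusted p = 0.00034). These fits called 2025, 7098 and 5928 genes in all. A genotype difference in Gyg that depends on the diet was therefore not shown by edgeR on all libraries.

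Sums of cell type markers moved with these contrasts. The fast fibre sum was 79425 to 175644 CPM in chow flox, 147915 to 194175 in chow KO, 129056 to 165858 in HFSC flox and 127138 to 154594 in HFSC KO. The sum of 9 fibroblast and matrix genes was 1322 to 6810.0 CPM in chow flox, 418 to 657 in chow KO, 3159 to 4597 in HFSC flox and 2762 to 3269.9 in HFSC KO. The sum of 8 macrophage genes was 102.3 to 1009 CPM in chow flox and 37.3 to 73.8 in chow KO. On chow all 9 matrix and all 8 macrophage genes were lower in KO, and in KO all 17 were higher on HFSC. The 10 slow fibre genes summed to 8723 to 10274 CPM in chow KO and 866 to 1381 in HFSC KO, and 9 of them fell. The 6 adipocyte genes summed to 205 to 268 CPM in chow KO and 479 to 743 in HFSC KO, and 4 of them rose. The 6 endothelial genes summed to 168 to 202 CPM in chow KO and 404 to 447 in HFSC KO. The 5 red blood cell genes summed to 109 to 147 CPM in HFSC KO and to at most 84.1 in any other library. Their part in the differences of the members was not tested beyond the scaling that follows. In bulk samples fewer cells of a type and less RNA per cell cannot be told apart.

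A member was therefore also read against the summed counts of the 11 fast fibre genes. Pygm then had 44.6 to 45.7 counts per 1000 fast fibre counts in chow flox, 47.1 to 50.7 in chow KO, 41.0 to 46.4 in HFSC flox and 32.3 to 42.1 in HFSC KO. Its highest library was 1.57 times its lowest on this scale and 2.58 times in CPM. Much of the fast fibre sum came from Myh4 and Atp2a1, with means of 71865 and 30324 CPM in chow KO beside a mean sum of 173416. Gyg had 2.17, 2.49 and 2.29 counts per 1000 in chow flox, 3.26, 2.64 and 2.58 in chow KO, 2.11, 1.65, 1.70 and 1.72 in HFSC flox, and 1.67, 1.62 and 2.03 in HFSC KO. Chow KO stayed above chow flox without overlap, but the difference shrank to 0.29 on the log2 scale and was not called (edgeR, adjusted p = 0.16). All 7 HFSC libraries were below all 6 chow libraries, a split that Gyg did not have in CPM. No other member had that split on this scale. In KO the fall of Gyg was -0.67 on this scale and was called (adjusted p = 0.026), that of Ppp1r3a was -0.64 and was not (adjusted p = 0.072). Ppp1r3c had 4.40 to 8.99 counts per 1000 in HFSC KO, above all 10 other libraries (1.54 to 4.35). The share of all genes whose libraries separate in these ways on this scale was not computed. On chow the difference of KO and flox turned to -0.32 for Gys1, -0.56 for Gbe1, -0.32 for Phkg1 and -0.01 for Ppp1r3a under this scaling, none of them called. The median of all genes moved to -0.65 in the same fit. This scale assumes that fast fibre transcripts themselves did not change. Of the 11 fast fibre genes 0 were called for KO against flox on chow (log2 fold changes -0.09 to 0.79). For HFSC against chow in KO 2 were called, each higher, and the 11 ran from -0.69 to 1.11. The assumption thus did not hold for every gene of the sum in that contrast.

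**Figure D5:**
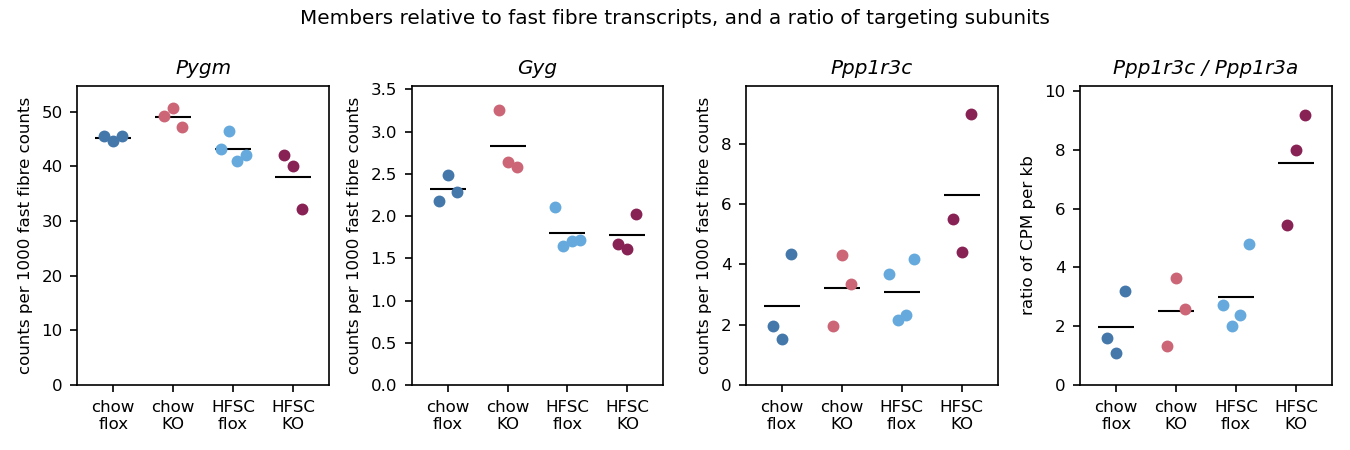
Counts of Pygm, Gyg and Ppp1r3c per 1000 fast fibre counts, and the ratio of Ppp1r3c to Ppp1r3a in CPM per kb (y axes from 0), by group. Points are libraries and lines are group means. Gyg is at 2.17 or more in the chow libraries and at 2.11 or less in the HFSC libraries, and the ratio is highest in HFSC KO (5.43 to 9.19).

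The ratio of Ppp1r3c to Ppp1r3a, chosen after its values were seen and given with no test, was 1.09 to 3.21 in chow flox, 1.34 to 3.63 in chow KO, 2.02 to 4.80 in HFSC flox and 5.43 to 9.19 in HFSC KO, from CPM per kb. The HFSC KO libraries lay above all others. The ratio of Gyg to Gys1 was 1.81 to 2.14 in chow KO and at most 1.54 in the other 10 libraries. It rests on the same Gyg values as the call on chow. That of Pygm to Gys1, also computed, was 23.5 to 27.3 in chow KO and overlapped HFSC flox (19.7 to 25.6). Neither of these was tested. Within the set, centred log2 CPM over the 13 libraries was closest between Phka1 and Phkb (root mean square distance 0.15), followed by Phkb and Ppp1r3a (0.18), and farthest between Ppp1r3a and Ppp1r3c (0.91). Every pair that held Ppp1r3c lay at 0.78 or more, and every other pair at 0.47 or less.

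The 5 genes whose centred log2 CPM lay closest to that of Pygm over the 13 libraries, among the 7764 genes whose mean reached 10 CPM, were Rps6ka2 (distance 0.11), Atp2a1 (0.11), Myh4 (0.12), Cacna1s (0.13) and Pkdcc (0.13). The SD of Pygm itself over these libraries was 0.41. Atp2a1 and Myh4 are also 2 of the 11 fast fibre genes. Atp2a1 encodes the calcium pump and Myh4 a myosin heavy chain of fast fibres, and Cacna1s the voltage sensor of the muscle calcium channel. For Ppp1r3c, with an SD of 0.90, the closest were Rgcc (0.36), Ucp3 (0.38), a mitochondrial uncoupling protein, Slc30a2 (0.43), Slc25a33 (0.43) and Tiparp (0.44). All these libraries share the same scaling, and no test was made.

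Other genes of the pathway were counted in 5 lists of 49 genes, of which 47 were tested. On chow 2 of 47 were called, both lower in KO, beside the 11.5% of all genes. Pygl, the liver phosphorylase, fell from 5.28 ± 3.30 CPM to 1.70 ± 0.122 (log2 fold change -1.64 ± 0.38, adjusted p = 0.023). Pgm2, a phosphopentomutase of the phosphoglucomutase family, fell from 5.64 ± 3.61 to 2.30 ± 0.657 CPM (-1.29 ± 0.38, adjusted p = 0.045). The chow flox libraries of Pygl ran from 2.48 to 8.92 CPM and those of Pgm2 from 2.78 to 9.69, so the groups did not overlap but the flox libraries differed several-fold among themselves. The median over the 47 was 0.26. On HFSC between the genotypes, and between the diets in flox, 0 of 47 were called.

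In KO between the diets 17 of 47 were called, 4 higher and 13 lower, beside the 25.5% of all genes. Among 9 genes of substrate supply, debranching and glycogen quality control 1 rose and 4 fell. Nhlrc1, which encodes the ubiquitin ligase malin, fell from 7.90 ± 0.479 to 3.90 ± 0.268 CPM (-1.02 ± 0.23, adjusted p = 0.011), and Pgm2 rose to 6.08 ± 1.20 CPM (1.39 ± 0.38, adjusted p = 0.021). Among 24 kinases, phosphatases and calmodulins 1 rose and 8 fell. Prkab2, a beta subunit of the energy sensor AMPK that can bind glycogen, fell from 638 ± 64.1 to 241 ± 59.1 CPM (-1.41 ± 0.33, adjusted p = 0.011). Gsk3b, a kinase that inhibits glycogen synthase, fell from 133 ± 5.18 to 84.5 ± 1.59 CPM (-0.66 ± 0.18, adjusted p = 0.021), while Prkar1a, a regulatory subunit of protein kinase A, rose from 160.2 ± 9.60 to 252 ± 15.2 CPM (0.65 ± 0.14, adjusted p = 0.0075). Of 6 genes of glucose entry 1 rose and 1 fell, and Hk1, a hexokinase, went from 7.64 ± 0.317 to 18.6 ± 4.04 CPM (1.28 ± 0.28, adjusted p = 0.0092). Of the tested liver and brain isoforms 1 of 4 rose, and of the other targeting subunits 0 of 4 were called.

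Because KO mice lack the locus of miR-181a-2 and miR-181b-2, the 3' UTRs of the members were searched for matches to the shared seed of the 5p forms. The mature sequences, from RefSeq on GRCm38.p6, are shown with the seed (bases 2 to 8) in capitals. The same mature forms are also made from the miR-181a1b1 locus, which was not targeted.
mmu-miR-181a-5p: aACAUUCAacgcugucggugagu
mmu-miR-181b-5p: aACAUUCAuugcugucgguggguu

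With the longest GENCODE M21 3' UTR taken per gene, 4 of the 9 members held a match of 7 bases, either to bases 2 to 8 or to bases 2 to 7 followed by A, and none held the match of 8 bases. Over all 21037 genes with an annotated 3' UTR the share with any such match was 20.992% (5.281% for 8 bases). The shares were not matched for 3' UTR length. That length was 1020 to 3667 bases in the 4 members with a match and 265 to 1934 in the other 5. The 7 matches are shown because they are the stretches of the members complementary to the seed, with the match in capitals.
Phka1 at chrX:102514892-102514915 (minus strand): catatctcTGAATGTgcttgtaag
Phka1 at chrX:102514813-102514836 (minus strand): actgaataaGAATGTAaataatat
Phkg1 at chr5:129864155-129864178 (minus strand): tgaggctggGAATGTAaccctgtg
Ppp1r3a at chr6:14716939-14716962 (minus strand): tatttagtTGAATGTgtagactgt
Ppp1r3a at chr6:14716127-14716150 (minus strand): gattctatTGAATGTttatctttc
Ppp1r3c at chr19:36732277-36732300 (minus strand): ataactcaTGAATGTttaggacct
Ppp1r3c at chr19:36731994-36732017 (minus strand): aattatttTGAATGTgaactgttt

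A match is a description of letters and not evidence of pairing. Gyg, the member called in the genotype contrast on chow, had none in its 3' UTR of 607 bases. In edgeR on all libraries none of the 4 members with a match was called between the genotypes on either diet. On chow Phka1, Ppp1r3a and Ppp1r3c were called higher in KO by limma voom, and by edgeR without chow flox replicate 4. These fits called 8 and 7 of the members, and 9899 and 7261 genes in all. Every member without a match was among those called by limma voom, and Gyg was called in both fits. The log2 fold changes of the 4 in KO, from edgeR on all libraries, were 0.63 (Phka1), 0.25 (Phkg1), 0.49 (Ppp1r3a) and 0.64 (Ppp1r3c) on chow, and -0.39, 0.03, -0.37 and 0.99 on HFSC.

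Promoters of Ppp1r3a and Ppp1r3c are shown because these targeting subunits were the members farthest apart across the libraries. Ppp1r3c lay far from every other member, so the distance is not particular to this pair. The sequences are from RefSeq (GRCm38.p6) and hold the bases before the start site that lie outside the annotated gene. Capitals mark CANNTG, the E-box core bound by factors such as MyoD.
Ppp1r3a at chr6:14755275-14755524 (minus strand): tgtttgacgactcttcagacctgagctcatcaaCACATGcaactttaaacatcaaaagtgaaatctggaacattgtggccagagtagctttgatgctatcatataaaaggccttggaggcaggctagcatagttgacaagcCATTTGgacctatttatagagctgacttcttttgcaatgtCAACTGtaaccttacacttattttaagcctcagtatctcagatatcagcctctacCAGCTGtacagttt
Ppp1r3c at chr19:36736654-36736854 (minus strand): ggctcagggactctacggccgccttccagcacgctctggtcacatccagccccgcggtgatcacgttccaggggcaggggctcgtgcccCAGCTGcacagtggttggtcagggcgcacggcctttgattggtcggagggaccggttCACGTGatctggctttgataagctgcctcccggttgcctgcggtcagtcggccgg

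In windows of 250 bases before the start, searched on both strands, 8 of 9 members held CANNTG, beside 66.217% of 32851 promoters. CACGTG, the form bound by clock factors and USF proteins, which CANNTG includes, was present in 1 of 9 members (Ppp1r3c) and in 6.021% of promoters. The window of Ppp1r3a had 40.4% G and C and that of Ppp1r3c 64.4%, beside a median of 52.4% over all promoters.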

How the data were processed

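The authors deposited unnormalized gene counts, 1 column per library. GRCm38, STAR 2.5.2b, Trimmomatic 0.36 and Subread 1.5.2 (featureCounts) are named per the submitters' processing notes. For strandedness, multimapped reads and the gene models behind the counts, the setting is not given in the sources used here. Symbols, coordinates and exon lengths came from GENCODE M21, with 49056 of 49315 identifiers matched.

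Counts of all 13 libraries entered 1 edgeR 4.0.16 fit (R 4.3.3; TMM, filterByExpr, robust quasi-likelihood F test, 4 group means), adjusted by Benjamini-Hochberg over 16496 genes at 0.05. SE was taken as the absolute log2 fold change divided by the root of F. Alternatives were RLE factors, library totals, scaling to fast fibre transcripts, DESeq2 1.42.0, limma 3.58.1 voom with quality weights, no filter, a replicate block, only the groups compared, and leaving out each library. The test was checked on simulated counts.

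Named pathway genes are at most 6 called per contrast with the smallest p, plus paralogues of the members. Neighbours of Pygm and Ppp1r3c are the 5 closest. Members and lists were chosen with earlier results of these data known. Replicates differed beyond sampling noise (chi-square per degree of freedom at least 10.5).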

Additional observations from a re-analysis of the deposited data

How the results depend on the processing

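The number of members called in edgeR was 1 for KO against flox on chow, 2 for HFSC against chow in KO, and 0 in the other contrasts. On chow it was 0 with scaling to fast fibre transcripts, with the replicate block and with only the groups compared, and 8 with limma voom; leaving out a library gave 0 to 7. Over all genes these 4 fits called 4627, 0, 2 and 9899. For HFSC against chow in KO it was 1 with scaling to fast fibre transcripts, without the filter on low counts and with the replicate block, 5 with DESeq2, and 6 with limma voom and with only the groups compared; leaving out a library gave 1 to 5. Over all genes these 6 settings called 1288, 3180, 2382, 5273, 7160 and 5651. For the interaction it was 1 with DESeq2 and 5 with limma voom, and 0 to 5 when a library was left out. For HFSC against chow in flox limma voom gave 1. The cause of these shifts was not tested. The 3 results called in edgeR on all libraries kept their direction under every setting run. Gys1, Gbe1 and Ppp1r3a, which limma voom called higher in KO on chow (0.32, 0.38 and 0.76), were at -0.32, -0.56 and -0.01 with scaling to fast fibre transcripts.

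With the replicate block the log2 difference of Gyg on chow was 0.91 (edgeR, adjusted p = 0.060) and that of Ppp1r3a in KO -1.02 (adjusted p = 0.060), while the fall of Gyg in KO kept its call (-1.04, adjusted p = 0.024). Same-numbered libraries did not deviate together (correlations from -0.34 to 0.08). The labels do not say that the numbers pair samples, but with so few shared numbers these correlations cannot exclude pairing. With library totals the median of all genes moved to -0.35 on chow and 0.21 for HFSC in KO; Gyg was still called in both (0.53 and -0.79). Without the filter Ppp1r3a had an adjusted p of 0.054. Members had at least 1062 reads in each library.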
